A study of Homo sapiens with 2 samples.

Results

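The genes of the proteasome and of its assembly factors were followed in the MDA-MB-231 breast cancer line, in revertant cells that had adapted to growth on homocysteine and in the parental cells they came from. The members were chosen by symbol, as the PSMA, PSMB, PSMC, PSMD, PSME, PSMF and PSMG genes with a number, leaving out PSMB8 and PSMB9, which lie among the MHC genes. This gave 46 genes of the 36601 genes in the files. They comprise 17 genes of the core particle, 9 of the base and 8 of the lid of the regulatory particle, 5 activators or inhibitors and 7 assembly factors. Of the 46 genes, 44 reached 20 CPM (UMIs of the gene per 1000000 UMIs of the library's cells) in at least 1 library and are called measured below. The rule uses symbols alone and no expression value.

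The proteasome degrades proteins that carry ubiquitin chains. Its core particle is a barrel of stacked rings, with outer rings of alpha subunits (PSMA) and inner rings of beta subunits (PSMB), of which PSMB5, PSMB6 and PSMB7 cut peptide bonds. The regulatory particle sits on the barrel: the ATPases of its base (PSMC) unfold substrates and open the alpha ring, and its lid holds PSMD14, which removes ubiquitin. Alternative caps such as PSME1 with PSME2 bind the barrel in its place, and dedicated chaperones (PSMG1 to PSMG4 for the core, and PSMD5, PSMD9 and PSMD10 for the base) guide assembly without staying in the finished particle. Cells under proteasome stress are known to raise these genes together through the transcription factor NFE2L1, and interferon replaces some core subunits by others, among them PSMB10 for PSMB7.

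The study asked how methionine-dependent cancer cells change when they regain growth on homocysteine. The D21 library came from revertant MDA-MB-231 cells on day 21, in medium without methionine and with 100 µM L-homocysteine and 1.5 µM vitamin B12 (cyanocobalamin). The D0 library came from parental MDA-MB-231 cells on day 0, in medium with 100 µM methionine, and the sources used here do not state its vitamin B12. Both media were custom RPMI 1640 with dialysed, heat-inactivated fetal bovine serum and penicillin-streptomycin. The revertants were cells that survived weeks of culture with repeated changes of medium. Each condition was 1 library of single cells, so there is no replicate spread and no test of the conditions, and a difference between them cannot be told apart from a difference between the libraries. The 95% intervals below are exact and cover counting error of unique molecular identifiers (UMIs, each standing for 1 captured transcript) only.

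The D21 library held 12487 cells with a median of 12022 UMIs and 3823 genes, and the D0 library 7492 cells with a median of 18908 UMIs and 4977 genes. Cells were kept from a UMI minimum set for each library, lower in D21 than in D0, and their UMIs summed to 182839048 in D21 and 183098116 in D0. The libraries shared 21 cell barcodes, 0.168% of those in D21 and 0.28% of those in D0. The label of a mesenchymal-like, hormone receptor-poor line was met, with VIM at 2876 CPM in D21 and 4157 CPM in D0 and the estrogen receptor gene ESR1 at 0.377 and 0.197 CPM, although the keratin gene KRT19 was also measured, at 658 and 970 CPM. None of 6 markers of other cell types was measured, and their sum was 7.48 CPM in D21 and 10.4 CPM in D0. Most of that sum was the endothelial gene PECAM1, at 6.42 CPM in D21 and 8.89 CPM in D0. Over all 6867 measured genes, the median log2 ratio of D21 over D0 was -0.003.

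The proteasome as a whole took almost the same share of the transcripts in both conditions. The 46 genes together had 8730 CPM in D21 and 8827 CPM in D0, a ratio of 0.989 (95% interval 0.987 to 0.991). With ribosomal protein and mitochondrial genes left out of the total the ratio was 1.011, on the other side of 1. That small total hid differences between the parts of the particle. The chaperones that assemble the core were higher in D21, the ATPases of the base and the PSME1 activator were lower, and the core particle and the lid were within about 2% of D0. Of the 44 measured genes, 17 had a ratio above 1 (49.4% of all measured genes did) and 27 a ratio below 1 (50.6% of all). Differences of size were fewer. PSMG1 and PSMG4 were the 2 members at least 25% higher in D21, against 6.09% of all measured genes, and PSME1 was the 1 member at least 20% lower, against 12.7% of all. With the UMI minimum doubled 0 members were at least 25% higher, and with each cell weighted equally 3 were at least 20% lower, PSMC1, PSMD3 and PSME1. By counting error alone, the interval of the ratio lay above 1 for 17 of the 44 members (42.2% of all measured genes) and below 1 for 22 (43.5% of all).

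**Figure D1:**
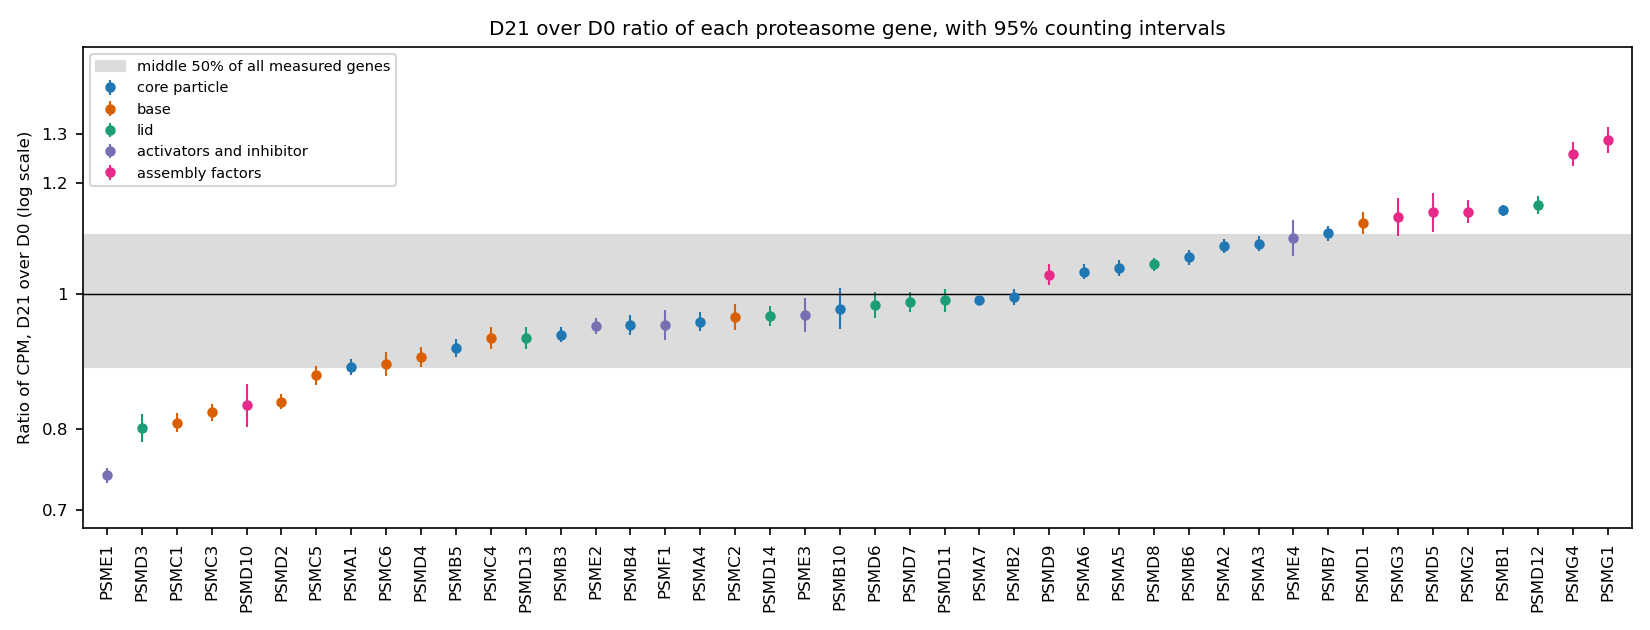
Ratio of D21 over D0 (log scale) for each of the 44 measured proteasome genes, ordered from the lowest to the highest and coloured by class, with bars for exact 95% intervals of counting error and a grey band for the middle 50% of all measured genes. PSME1 (0.742) stands lowest and PSMG4 (1.258) and PSMG1 (1.287) highest.

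Levels of the members spanned 30.5-fold in D0. These libraries count the 3' end of each transcript once, whatever its length, so CPM can be set side by side between genes, apart from differences in how well each 3' end is captured. PSMA7, an alpha subunit, had the highest level, 1154 CPM in D21 and 1166 CPM in D0. PSMB1, a beta subunit without a catalytic site, came next with 613 CPM in D21 and 535 CPM in D0, and the lid subunit PSMD8 followed with 406 CPM in D21 and 387 CPM in D0. At the low end stood PSMB10 with 37.3 and 38.3 CPM, the base chaperone PSMD10 with 32.1 and 38.5 CPM and the core chaperone PSMG3 with 44.5 and 39.3 CPM, in D21 and D0 in each case. The median measured member had 153 CPM in D21 and 162 CPM in D0. Subunits that occur in equal numbers in the barrel were thus far from equal in transcript level. By subcomplex, the core particle took 4786 CPM in D21 and 4691 CPM in D0, the base 1363 and 1541 CPM, the lid 1320 and 1312 CPM, the activators with the inhibitor 641 and 738 CPM, and the assembly factors 619 and 546 CPM.

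The 2 members under 20 CPM are genes with a restricted tissue range. PSMA8, an alpha subunit of testis, had 26 UMIs in D21 (0.142 CPM) and 8 UMIs in D0 (0.0437 CPM), too few to read a difference from. PSMB11, the catalytic subunit of thymus proteasomes, had 0 UMIs in D21 and 0 UMIs in D0. Its exact upper limit was 0.0202 CPM in D21 and 0.0201 CPM in D0.

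**Figure D2:**
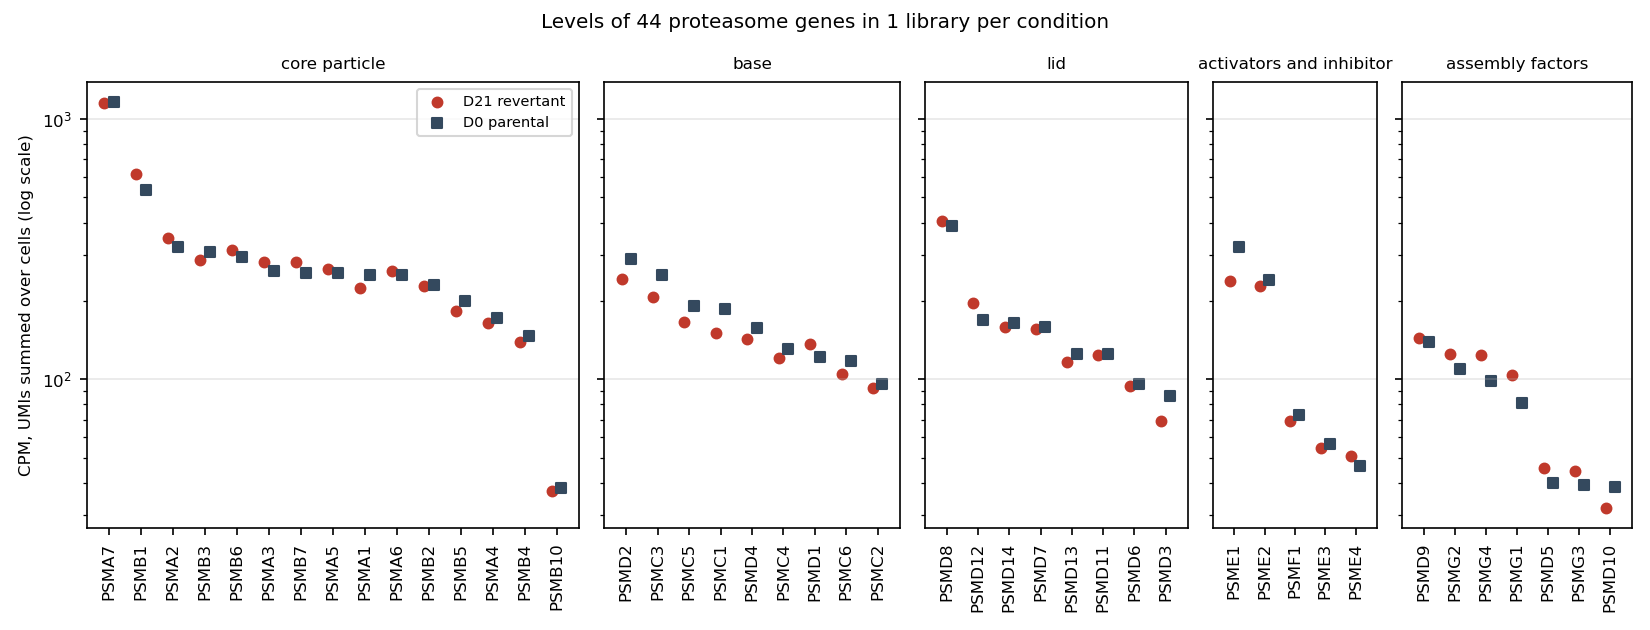
Level (CPM, log scale) of each of the 44 measured proteasome genes in D21 and D0, grouped by subcomplex, as points without intervals. PSMA7 stands highest at 1154 CPM in D21 and 1166 CPM in D0, and the members keep their order of magnitude between the libraries.

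Among core subunits the alpha and beta rings were each within 4% of D0. The alpha ring summed to 2701 CPM in D21 and 2682 CPM in D0 (ratio 1.007), and the beta ring to 2085 CPM in D21 and 2009 CPM in D0 (ratio 1.038). The whole core had a ratio of 1.02 (95% interval 1.017 to 1.023) and a median log2 ratio of -0.01, with single genes between 0.886 and 1.146. Of its 15 measured genes, 7 were above 1 (49.4% of all measured genes were) and 8 below (50.6% of all). The 3 standard catalytic subunits did not move together. PSMB5, which cuts after hydrophobic residues, had 183 CPM in D21 and 200 CPM in D0 (0.914, 0.900 to 0.927). PSMB6, which cuts after acidic residues, had 313 CPM in D21 and 295 CPM in D0 (1.061, 1.049 to 1.074). PSMB7, which cuts after basic residues, had 283 CPM in D21 and 257 CPM in D0 (1.104, 1.091 to 1.118). PSMB5 was thus lower and the other two were higher in D21, each by under 11%. PSMB10, the interferon-induced replacement for PSMB7, had 37.3 CPM in D21 and 38.3 CPM in D0, and its interval of 0.943 to 1.009 included 1. PSMB1 had the highest ratio in the core, 1.146 (1.137 to 1.156), and PSMA7 a ratio of 0.989 (0.983 to 0.995).

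The base of the regulatory particle was lower in D21. Its 9 genes had a ratio of 0.885 (95% interval 0.880 to 0.889) and a median log2 ratio of -0.17, and 8 of the 9 were below 1. The 6 ATPases, which form a ring of their own, together had 842 CPM in D21 and 972 CPM in D0, a ratio of 0.866 (0.860 to 0.872). All 6 were below 1, between 0.808 and 0.962, where 50.6% of all measured genes were below 1. PSMC1 was the lowest, with 150 CPM in D21 and 186 CPM in D0 (0.808, 0.796 to 0.821). PSMC1 has 13 pseudogenes named after it in the GENCODE 29 annotation, and the sources used here do not say how reads shared with such copies were assigned. PSMC3, which has no named pseudogene, had 206 CPM in D21 and 251 CPM in D0 (0.822, 0.811 to 0.834). The lower level of the ATPases therefore did not rest on PSMC1.

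The lid showed no common direction. Of its 8 genes, 2 were above 1 (49.4% of all measured genes were) and 6 below (50.6% of all), with a median log2 ratio of -0.02. The summed ratio was 1.006 (95% interval 1.001 to 1.012). It turned to 0.999 with the UMI minimum doubled, and to 0.998 and 0.977 within the 2 cell states described below. PSMD12, a scaffold subunit of the lid, was the highest, with 196 CPM in D21 and 169 CPM in D0 (1.156, 1.139 to 1.174). PSMD3, another scaffold subunit, was the lowest, with 69.1 CPM in D21 and 86.2 CPM in D0 (0.802, 0.783 to 0.821). Subunits of the same lid therefore differed from each other by more than the lid did between conditions. PSMD14, the deubiquitinating enzyme, had 159 CPM in D21 and 165 CPM in D0 (0.964, 0.948 to 0.979).

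The activators were lower in D21 mainly through PSME1. Together with the inhibitor PSMF1 they had a ratio of 0.869 (95% interval 0.862 to 0.876), and 4 of the 5 genes were below 1 (50.6% of all measured genes were). PSME1 had 238 CPM in D21 and 321 CPM in D0, the lowest ratio of all members at 0.742 (0.733 to 0.751). PSME2, the other subunit of the same PA28 ring, had 229 CPM in D21 and 241 CPM in D0 (0.948, 0.935 to 0.960). The genes lie near each other on chromosome 14, PSME1 at chr14:24136158-24138967 on the plus strand and PSME2 at chr14:24143362-24147570 on the minus strand (GRCh38, GENCODE 29). In D0 PSME1 exceeded PSME2, while in D21 their levels were within 5% of each other.

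The assembly factors had the highest ratio of the 5 classes. Their ratio was 1.134 (95% interval 1.125 to 1.144), the median log2 ratio was 0.19, and 6 of 7 were above 1 (49.4% of all measured genes were). The 4 core chaperones accounted for this, with 398 CPM in D21 and 328 CPM in D0, a ratio of 1.213 (1.199 to 1.226) and all 4 above 1. PSMG1, which pairs with PSMG2 to build the alpha ring, had 104 CPM in D21 and 80.7 CPM in D0, the highest ratio of all members at 1.287 (1.260 to 1.315). PSMG2 had 125 CPM in D21 and 109 CPM in D0 (1.144, 1.122 to 1.166). PSMG4, which pairs with PSMG3, had 124 CPM in D21 and 98.7 CPM in D0 (1.258, 1.234 to 1.283). PSMG3 had 44.5 CPM in D21 and 39.3 CPM in D0 (1.134, 1.098 to 1.171). Both chaperone pairs were thus higher, and within each pair the members differed in size. The 3 chaperones of the base summed to 222 CPM in D21 and 218 CPM in D0 (1.017), and among them PSMD10, also known as gankyrin, had 32.1 CPM in D21 and 38.5 CPM in D0 (0.832, 0.804 to 0.862). PSMD9, another base chaperone, overlaps a second gene on its strand, as does PSMA3 in the core, so that their counts are uncertain.

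Free RNA in the droplets was read from barcodes under 100 UMIs, which hold no cell. There the members took 10041 CPM in D21 and 9462 CPM in D0, more than in cells, and the order between the libraries was the opposite of that in cells. PSMG1 had 122 CPM in D21 and 86.5 CPM in D0 in these barcodes, and PSME1 had 278 and 353 CPM, so that both differed between libraries in the same direction as in cells. The part of free RNA in the differences was not tested.

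Genes around the proteasome that the symbol rule leaves out were also examined. POMP, the maturation factor that works with the core chaperones, had 499 CPM in D21 and 420 CPM in D0 (1.189). ADRM1, a ubiquitin receptor of the base, had 208 CPM in D21 and 242 CPM in D0 (0.858). PSMB8 and PSMB9, the interferon-induced catalytic subunits, had ratios of 1.254 and 1.494, with PSMB9 at 123 CPM in D21 and 82.0 CPM in D0. PSMB10, which works beside them, did not share that difference. All 8 genes of the interferon-induced antigen processing list were above 1 (49.4% of all measured genes were), with a median log2 ratio of 0.27. That list includes PSMB8 and PSMB9. Of 10 measured proteasome-bound and shuttle factors, 9 were above 1 (49.4% of all measured genes were). The 12 genes of that list together had 1072 CPM in D21 and 1006 CPM in D0. RPS27A, which encodes ubiquitin fused to a ribosomal protein, had 4102 CPM in D21 and 2906 CPM in D0 (1.411). The stress-responsive polyubiquitin gene UBB had 712 CPM in D21 and 849 CPM in D0 (0.839), and UBA1, the main ubiquitin-activating enzyme, had 57.8 CPM in D21 and 90.3 CPM in D0 (0.640). The NFE2L1 list covers the factor, genes that release and process it, and also NFE2L2 and SQSTM1. Of its 8 measured genes, 6 were below 1 (50.6% of all measured genes were), with a median log2 ratio of -0.11. NFE2L1 had 43.2 CPM in D21 and 49.4 CPM in D0, and VCP, the extracting ATPase, had 158 and 189 CPM. NFE2L2 was among the 6, at 0.966. Above 1 were NGLY1 at 1.135 and SQSTM1 at 1.096, and, under 20 CPM, DDI2 at 1.174 and SYVN1 at 1.217.

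The promoters of the members were searched for letters known to bind factors that act on them. RefSeq promoters (GRCh38.p14, 250 bases before to 50 bases after the RefSeq start) were matched by symbol for 40 of the 46 members. That start can differ from the GENCODE start of the gene. The letters TGACNNNGC, the antioxidant response element to which NFE2L1 binds, occurred on either strand in 13 of 40 member promoters (32.5%) and in 13.56% of all 27305 promoters. The interferon-stimulated response element, read as GAAA, any 2 bases and GAAA, occurred in 6 of 40 (15%) and in 3.648% of all. CCAAT, the box of the factor NF-Y, occurred in 17 of 40 (42.5%) and in 35.7% of all, and the palindrome of nuclear respiratory factor in 1 of 40 (2.5%) and in 1.359% of all. Among measured members with a promoter, the antioxidant letters were found in 4 of 6 assembly factors, 3 of 5 activators or inhibitors, 3 of 8 base genes, 2 of 8 lid genes and 1 of 11 core genes. The core genes PSMA7, PSMB1, PSMB6 and PSMB7, and also PSMD4 and PSMG3, had no promoter entry and were not searched. The 13 members with the match had ratios of D21 over D0 between 0.742 and 1.287 and a median log2 ratio of 0.04, and 6 of them were below 1. The 25 without it had ratios between 0.808 and 1.258 and a median of -0.05, and 19 of them were below 1 (50.6% of all measured genes were). This difference was not tested. Members with the match include both PSMG1, with the highest ratio of all, and PSME1, with the lowest. The stretches of PSMG1 and PSMG2 shown here lie inside the GENCODE span of the gene. Shown here are matches in members that were high (PSMG1, PSMG2, PSMD12) and low (PSME1, PSMD3) in D21. They are in the direction of each gene, with the fixed letters of TGACNNNGC in capitals.
PSMG1, chr21:39183606-39183654, minus strand: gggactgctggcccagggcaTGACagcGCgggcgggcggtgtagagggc
PSMG2, chr18:12658679-12658727, plus strand: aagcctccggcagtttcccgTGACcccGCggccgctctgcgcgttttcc
PSMD12, chr17:67366714-67366762, minus strand: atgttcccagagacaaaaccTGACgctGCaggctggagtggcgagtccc
PSME1, chr14:24136088-24136136, plus strand: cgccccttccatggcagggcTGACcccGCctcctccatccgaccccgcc
PSMD3, chr17:39980750-39980798, plus strand: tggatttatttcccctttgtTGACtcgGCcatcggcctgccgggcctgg

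The interferon letters were found in PSMA4, PSMB4, PSMB10, PSME1, PSME2 and PSMG4. The matches of PSMB10, PSME2 and PSMG4 are shown because PSMB10 and PSMG4 differed between the cell states described next in both libraries and PSME2 in D21, with both GAAA in capitals. Counted from the RefSeq start, the first base of the match stood at -21 in PSMB10, -28 in PSME2 and -33 in PSMG4. By GENCODE positions these stretches lie inside the gene. The gene spans are chr16:67934502-67937087 for PSMB10, chr14:24143362-24147570 for PSME2 and chr6:3231403-3303373 for PSMG4.
PSMB10, chr16:67936851-67936891, minus strand: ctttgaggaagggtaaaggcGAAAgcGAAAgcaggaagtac
PSME2, chr14:24146611-24146658, minus strand: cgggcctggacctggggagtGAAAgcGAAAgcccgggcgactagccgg
PSMG4, chr6:3258894-3258943, plus strand: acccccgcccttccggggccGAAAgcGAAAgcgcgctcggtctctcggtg

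Both libraries held cells of 2 expression states, one with CEMIP, SAA1, SAA2, NNMT and FLG and the other with AGR2, SPANXB1, SOX4, CST1 and AFF3. A cell was placed by which list had more UMIs, where both lists together had at least 5. The CEMIP/SAA state took 44.6% of cells in D21 and 23.3% in D0, and the AGR2/SPANXB1 state 35.9% in D21 and 62.8% in D0. The remaining 19.6% in D21 and 13.9% in D0 were not placed, and 3.64% and 2.98% of cells lay within 20% of an equal split. No proteasome gene was used to place the cells.

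The core chaperones and PSMB10 differed between the states, in both libraries in the same direction. The core chaperones were 1.342-fold higher in CEMIP/SAA cells than in AGR2/SPANXB1 cells in D21 and 1.427-fold higher in D0. All members together had 8910 CPM in CEMIP/SAA cells and 8411 CPM in AGR2/SPANXB1 cells in D21 (1.059), and 9188 and 8597 CPM in D0 (1.069). Of the 44 measured members, 34 were above 1 in D21 (61% of all measured genes) and 32 in D0 (61.7% of all). Those at least 25% higher numbered 6 in D21 (18% of all) and 6 in D0 (18.2% of all), and these were the same 6 genes, PSMB1, PSMB10, PSMD5, PSMG1, PSMG2 and PSMG4. Those at least 20% lower were 2 in D21 (10.6% of all), PSMD10 and PSME2, and 1 in D0 (10% of all), PSMD10.

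PSMB10 had 43.8 CPM in CEMIP/SAA cells and 31.7 CPM in AGR2/SPANXB1 cells of D21 (1.38, 1.31 to 1.46), and 57.2 and 29.8 CPM in those of D0 (1.92, 1.83 to 2.02). PSMG4 had 142 CPM in CEMIP/SAA cells and 99.5 CPM in AGR2/SPANXB1 cells of D21 (1.42), and 135 and 79.6 CPM in those of D0 (1.70). PSMG1 had 117 and 81.1 CPM in the same order in D21 (1.44) and 98.5 and 69.1 CPM in D0 (1.43). Of the core chaperones PSMG3 differed least, with ratios of 1.08 in D21 and 1.10 in D0. PSMD10 went the other way, with 26.4 CPM in CEMIP/SAA cells and 41.4 CPM in AGR2/SPANXB1 cells of D21 (0.637), and 30.5 and 42.9 CPM in those of D0 (0.710). PSMB9, outside the rule, differed in the direction of PSMB10, with ratios of 1.69 in D21 and 2.44 in D0. The activators PSME1 and PSME2 differed between the libraries in this contrast. PSME1 had 235 CPM in CEMIP/SAA cells and 258 CPM in AGR2/SPANXB1 cells of D21 (0.913), and 358 and 310 CPM in those of D0 (1.156), opposite directions that were not tested against each other. PSME2 had 206 CPM in CEMIP/SAA cells and 275 CPM in AGR2/SPANXB1 cells of D21 (0.748), and 247 and 244 CPM in those of D0 (1.013).

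CEMIP/SAA cells also held more UMIs, with a median of 14315 against 11098 in AGR2/SPANXB1 cells of D21 and 25031 against 17695 in those of D0. The state contrast was therefore repeated within 4 equal groups of cells by UMIs. The core chaperones stayed higher in CEMIP/SAA cells in all 4 groups, 1.27-fold to 1.40-fold in D21 and 1.28-fold to 1.51-fold in D0. PSMB10 did so as well, 1.28-fold to 1.87-fold in D21 and 1.54-fold to 3.01-fold in D0, and PSMD10 stayed lower, between 0.543 and 0.704 in D21 and between 0.629 and 0.733 in D0. PSME1 lay between 0.837 and 0.974 in D21 and between 1.114 and 1.518 in D0. The sum of all members did not hold its difference, with ratios between 0.975 and 1.063 in D21 and between 0.992 and 1.098 in D0.

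**Figure D3:**
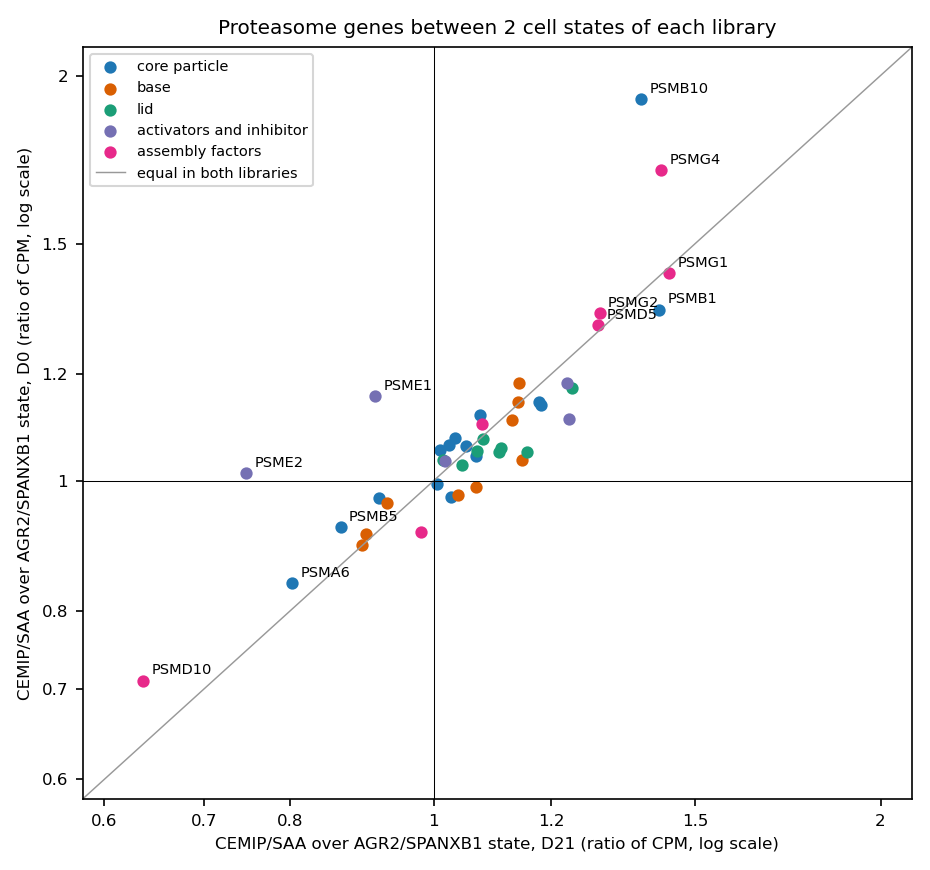
Ratio of CEMIP/SAA cells over AGR2/SPANXB1 cells in D21 (horizontal) and in D0 (vertical) for each measured proteasome gene, both axes logarithmic. PSMB10 (1.38 in D21 and 1.92 in D0) and PSMG4 (1.42 and 1.70) lie toward the upper right, and PSMD10 (0.637 and 0.710) at the lower left.

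Because the states took different shares of the cells, D21 and D0 were also compared within each state. The lists that place the cells differed between the libraries themselves. Their summed ratios of D21 over D0 were 2.529 for the CEMIP/SAA list and 0.683 for the AGR2/SPANXB1 list. Whether cells placed in the same state are alike in both libraries was not tested. The ATPases stayed lower in D21, with ratios of 0.866 in CEMIP/SAA cells and 0.853 in AGR2/SPANXB1 cells, and each of the 6, PSMC1 to PSMC6, was below 1 in both. The core chaperones stayed higher by less than in all cells, 1.085 and 1.154 against 1.213. No member was at least 25% higher within CEMIP/SAA cells (4.83% of all measured genes were) or within AGR2/SPANXB1 cells (4.47% were). PSMG1 had ratios of 1.185 in CEMIP/SAA cells and 1.174 in AGR2/SPANXB1 cells. PSMG4 had 1.046 in CEMIP/SAA cells and 1.2497 in AGR2/SPANXB1 cells, just under the 25% used for the count. PSMB1 had 1.086 in CEMIP/SAA cells and 1.026 in AGR2/SPANXB1 cells, against 1.146 in all cells. PSMD10 had 0.866 and 0.965 in the same order, against 0.832 in all cells. Members at least 20% lower were PSMB10 and PSME1 within CEMIP/SAA cells (13.1% of all) and PSMC1, PSMC3 and PSMD3 within AGR2/SPANXB1 cells (12.7% of all). PSME1 had a ratio of 0.658 (0.645 to 0.670) in CEMIP/SAA cells and 0.832 (0.817 to 0.848) in AGR2/SPANXB1 cells, below 1 in both. Its partner PSME2 had 0.834 in CEMIP/SAA cells and 1.13 in AGR2/SPANXB1 cells, opposite directions. PSMB10, level over all cells, had 0.765 and 1.066. Over the 44 measured members, 17 were above 1 in both states (37% of all measured genes), 24 below 1 in both (44.7% of all) and 3, PSMB10, PSMD7 and PSME2, differed in direction (18.2% of all). PSMD7, a lid subunit, and PSMD5 were named after their values were seen.

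Cells with more UMIs gave the proteasome a larger share of them. From the fewest to the most UMIs, the members together had 7946, 8587, 8674 and 9024 CPM in the 4 groups of D21, and 8098, 8389, 8740 and 9206 CPM in those of D0. Between the groups with most and fewest UMIs, 40 of 44 members were above 1 in D21 (70.9% of all measured genes were) and 38 of 44 in D0 (68.9% of all), with median log2 ratios of 0.21 in D21 and 0.21 in D0 against 0.12 and 0.13 over all genes. PSMG1 had 111 CPM in the group with most and 79.6 CPM in that with fewest UMIs in D21 (1.39), and 91.3 and 52.1 CPM in D0 (1.75). PSME1 ran against this, with ratios of 0.815 in D21 and 0.808 in D0. Between libraries, group by group, the ATPases of D21 were 0.861 to 0.882 of those of D0 and the activators with the inhibitor 0.832 to 0.888. The ratio of the core chaperones was 1.351 in the groups with fewest UMIs, then 1.335, 1.239 and 1.143 in those with most. These groups are ranks within a library and hold different depths, with medians of 7083 to 24108 UMIs in D21 and 11779 to 40876 UMIs in D0.

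**Figure D4:**
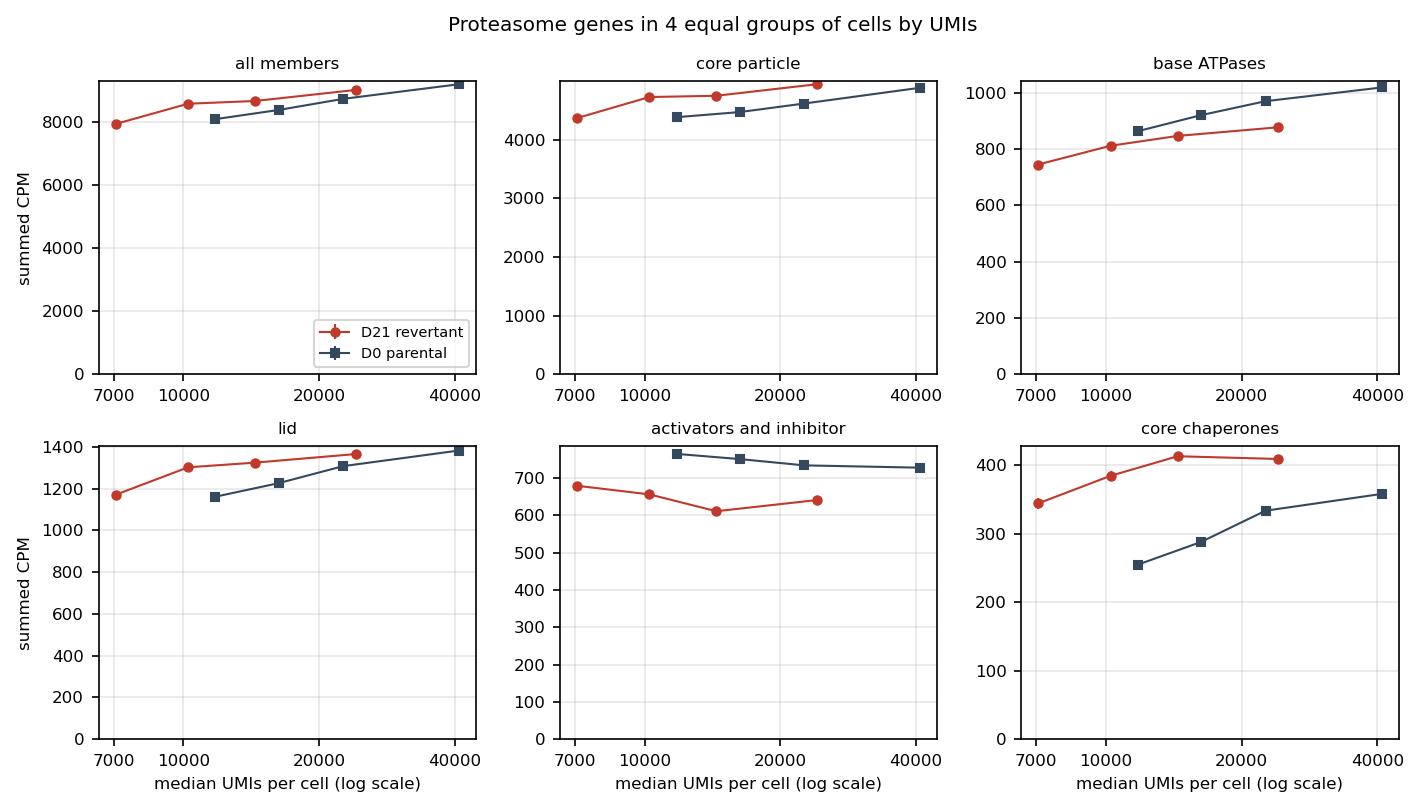
Summed level (CPM) of all members, the core particle, the base ATPases, the lid, the activators with the inhibitor and the core chaperones, one panel each, against the median UMIs per cell (log scale) of 4 equal groups of cells by UMIs, for D21 and D0. All members run upward in both libraries, to 9024 CPM in D21 and 9206 CPM in D0 in the groups with most UMIs.

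Cells with a higher mitochondrial share of UMIs had a lower proteasome share. Mitochondrial UMIs are part of the total by which CPM is divided, so part of this relation is fixed by the calculation. The median mitochondrial share was 9.29% in the highest and 4.56% in the lowest group of D21, and 8.03% and 4.07% in D0. In the cells with the highest mitochondrial share the members had 7856 CPM and in those with the lowest 9330 CPM in D21 (0.842). In D0 they had 8049 and 9452 CPM (0.852). Of 44 members, 40 were below 1 in D21 (63.9% of all measured genes were) and 40 in D0 (44.8% of all). The median log2 ratio of the members was -0.25 in D21 and -0.26 in D0, against -0.08 and 0.04 over all genes. PSMB10 and PSMG4 lay on the other side of 1, PSMB10 at 1.12 in D21 and 1.15 in D0 and PSMG4 at 1.13 and 1.24. Cells with the highest share also held fewer UMIs than those with the lowest, with medians of 9977 against 14361 in D21 and 16919 against 19952 in D0. The part of this depth in the contrast was not tested. Over all cells the median mitochondrial share was 6.61% in D21 and 5.75% in D0, and its part in the differences between the libraries was not tested.

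The cell cycle separated assembly factors from each other. In the 20% of cells with the highest share of S phase transcripts, PSMG1 had 136 CPM against 96.1 CPM in the other cells of D21 (1.41), and 120 against 71.2 CPM in those of D0 (1.69). PSMG4 was 1.19-fold higher in these cells in D21 and 1.22-fold higher in D0. In the 20% of cells with the highest share of G2/M transcripts PSMG4 was lower, at 0.799 in D21 and 0.713 in D0, whereas the base chaperone PSMD10 was higher, at 1.23 in D21 and 1.29 in D0. PSMD14 had 178 CPM in G2/M-high cells and 153 CPM in other cells of D21 (1.16), and 187 and 159 CPM in those of D0 (1.18). By class, the base was 1.098 in D21 and 1.082 in D0 in G2/M-high over other cells, and the core particle 0.988 and 0.957. The S-high cells had a median of 12267 UMIs against 11954 in the other cells of D21, and 20366 against 18390 in those of D0. The G2/M-high cells had 14127 against 11622 UMIs in D21 and 22414 against 18054 in D0, and the part of this depth in the differences was not tested. Within S-high cells the D21 over D0 ratio of PSMG1 was 1.13, and within the other cells 1.35.

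A few cells of each library carried an interferon response, 297 in D21 (2.38%) and 201 in D0 (2.68%). PSMB10 had 46.9 CPM in them and 37.1 CPM in the other cells of D21 (1.27, 1.10 to 1.45), and 49.0 and 38.0 CPM in those of D0 (1.29, 1.13 to 1.47). PSME1 had 270 CPM in them and 237 CPM in the other cells of D21 (1.14), and 388 and 319 CPM in those of D0 (1.22). PSME2 had 266 and 228 CPM in D21 (1.17) and 296 and 240 CPM in D0 (1.23). These 3 genes are the members known to respond to interferon, and each had most of its level in the other cells too. PSMG1 was lower in the interferon cells, at 0.754 in D21 and 0.712 in D0. The sum of the core chaperones, PSMG1 included, was also lower, at 0.863 in D21 and 0.864 in D0. The sum of all members was level, at 0.988 and 0.993.

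Every cell held proteasome transcripts. With each cell thinned to the UMI minimum of D21, the members gave a mean of 46.4 UMIs per cell in D21 and 46.6 in D0, with a median of 46 in both and a range from the 5th to the 95th percentile of 30 to 66 in D21 and 29 to 66 in D0. Unthinned means were 128 UMIs in D21 and 216 UMIs in D0. The variance over cells was 2.63 times that from counting in D21 and 2.74 times in D0, which left a spread between cells of 18.7% and 19.2% of the mean. Across cells, core and regulatory particle transcripts went together weakly, with r = 0.338 over 12487 cells of D21 and r = 0.404 over 7492 cells of D0. Core subunits and core chaperones had r = 0.136 in D21 and 0.174 in D0. The cells of a library share its capture and its mix of states, and these correlations describe the cells without a test.

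**Figure D5:**
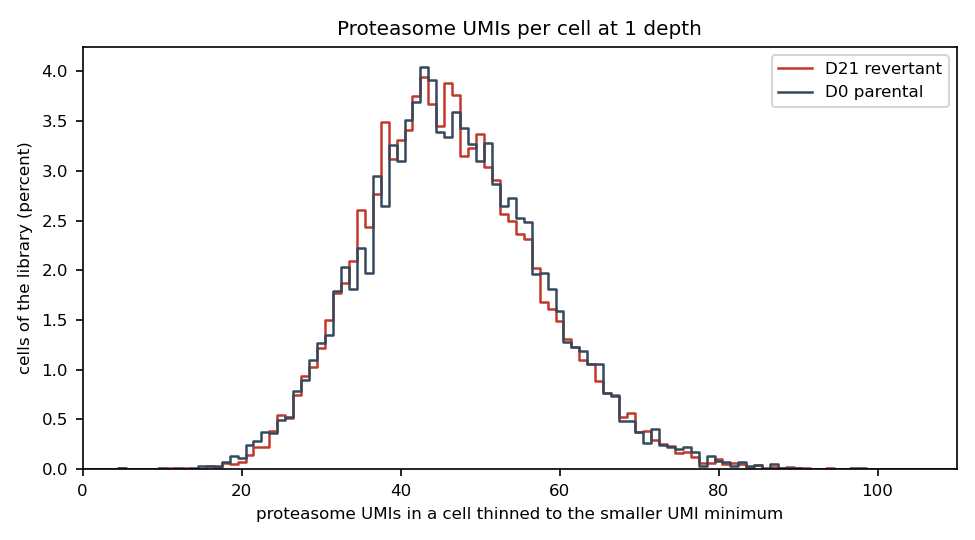
Share of cells (percent) by number of UMIs of all members, with each cell thinned to the UMI minimum of D21, for D21 and D0. The distributions lie over each other, with a median of 46 UMIs in both libraries and no cell at 0.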

How the data were processed

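The authors deposited unfiltered UMI counts for every gene and droplet barcode, with empty droplets, from 10x Single Cell 3' v3.1 libraries with Cell Ranger 4 per the file headers and GRCh38 per the submitters' processing notes. Barcodes were called cells when their UMIs reached 10% of the 99th percentile over the 5000 largest barcodes, with at least 500 genes and at most 20% mitochondrial UMIs, which removed 38 barcodes in D21 and 11 in D0. No doublets were removed, since no caller was run; an alternative leaves out the 6% of cells with the most UMIs. The cells held 91.5% of the UMIs of D21 and 91.6% of those of D0.

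The UMIs of each gene were added up over a library's cells and divided by the sum of all UMIs of those cells (CPM). Ratios are D21 over D0 with exact conditional 95% intervals, and levels have exact Poisson intervals; both cover counting error only. With 1 library per condition no test was made, and genes were counted by size (at least 25% higher or 20% lower, with at least 20 CPM in either library), beside the same share of all measured genes. The calculation of ratios and their intervals was tested on simulated Poisson counts, which hold counting error only. The other steps were not tested in this way.

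The members and all gene lists were chosen with earlier results of these data known. Values were given in full for the 5 highest and 5 lowest ratios, the 3 highest and 3 lowest levels, PSMB5, PSMB6, PSMB7, PSMB10, PSME1, PSME2, PSMD14, members under 20 CPM and the 3 members that differed most between cell states. The cell states, the S phase and G2/M groups and the interferon cells (at least 5 UMIs and 1000 CPM of the interferon burst markers) were set from lists without members. Positions came from GENCODE 29 and promoters from RefSeq; 12 members have 32 pseudogenes named after them. Some genes of the list of ubiquitin genes and activating enzymes, and its counts, are not reported here. The software was Python 3.11.15 with numpy 2.4.6, scipy 1.17.1, pandas 2.3.3 and matplotlib 3.10.9.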

Additional observations from a re-analysis of the deposited data

How the results depend on the processing

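Summed ratios of D21 over D0 are given for all members, core, base, lid, activators with inhibitor, and assembly factors. With the UMI minimum at 2 times the rule, all members were at 0.984, the core at 1.017, the lid at 0.999, which reversed it, and the assembly factors at 1.111, and 0 members were at least 25% higher. Without the 6% of cells with the most UMIs, all members were at 0.998, the core at 1.031, the lid at 1.016, the activators at 0.876 and the assembly factors at 1.152, with 2 members at least 20% lower. With ribosomal protein and mitochondrial genes left out of the total, all members were at 1.011, which reversed them, the core at 1.043, the base at 0.904, the lid at 1.029, the activators at 0.888 and the assembly factors at 1.16, while the median log2 ratio of all genes moved to 0.03. With each cell weighted equally, all members were at 0.995, the core at 1.025, the lid at 1.018 and the assembly factors at 1.165, with 3 members lower (PSMC1, PSMD3 and PSME1). The base lay below 1 and the assembly factors above 1 under every alternative run, and dropping the mitochondrial limit or using median-of-ratios factors left all summed ratios within counting error. Filters on low values were varied for the counts of members alone: with at least 5 CPM 2 members were at least 25% higher, and with no filter 3, PSMA8 being added, while the number at least 20% lower stayed at 1.

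The next alternatives were chosen after seeing the data. Within CEMIP/SAA cells, all members were at 0.970, the core at 1.004, the lid at 0.998 (reversed), the activators at 0.789 and the assembly factors at 1.071, with 0 members higher and 2 lower. Within AGR2/SPANXB1 cells, they were at 0.978, the core at 1.006, the base at 0.869, the lid at 0.977 (reversed), the activators at 0.959 and the assembly factors at 1.091, with 0 members higher and 3 lower, and PSME2 reversed to 1.13. With each cell thinned to the smaller UMI minimum, all members were at 0.994, the core at 1.024, the lid at 1.016 and the assembly factors at 1.167, with 3 members lower. The cause of these shifts was not tested. No paired analysis was possible because each condition was 1 library, and for the same reason no library could be left out.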

Other observations

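The members lie on 17 chromosomes, with 8 on chromosome 14 and 7 on chromosome 17. Of the 7 measured members on chromosome 14, 5 had ratios of D21 over D0 below 1 (50.6% of all measured genes did), the lowest PSME1 at 0.742. PSMA3 at 1.085 and PSMA6 at 1.037 were above 1. Those on chromosome 17 include both PSMD12 at 1.156 and PSMD3 at 0.802. In barcodes under 100 UMIs the core chaperones had 456 CPM in D21 and 343 CPM in D0, and the base ATPases 1026 and 1071 CPM. Over thinned cells, the members correlated with ribosomal protein genes at r = 0.238 in D21 and 0.32 in D0 and with mitochondrial genes at r = -0.265 and -0.246, as descriptions over cells that share a library. Thinned cells have about the same total of UMIs, so counts of different genes compete within a cell. Assembly factors were not seen in 628 of 12487 thinned cells of D21 and in 566 of 7492 thinned cells of D0.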
